A study of Mus musculus with 12 samples.

Results

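The genes described here encode 6 receptors by which neutrophils sense formyl peptides, complement fragments, a lipid mediator and a metabolite. They are Fpr1, Fpr2, C5ar1, C3ar1, Ptafr and Hcar2. They were chosen by symbol, under a rule that uses no measured value, and are 6 of the 23621 gene rows of a count table. All 6 had a row, and 5 of them passed the filter on low counts, which 10604 genes passed in all. C3ar1 did not pass it, and is given by its reads. RNA sequencing covered 12 libraries of neutrophils from female Balb/c mice aged 8 weeks, in 3 groups of 4. The Naive libraries came from bone marrow of mice that carried no tumour. The HDN (high-density neutrophils) and LDN (low-density neutrophils) libraries came from peripheral blood of mice with liver metastases. The labels name no drug and no engineered allele for any group. The blood libraries carry the same numbers in both groups (3, 4, 5 and 7), and the Naive libraries are numbered 1 to 4. Whether each library stands for its own animal is not in the labels, so a p-value measures the spread between these samples only, which may be technical.

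Formyl peptide and complement receptors are G protein-coupled receptors of the cell surface. Fpr1 and Fpr2 recognise peptides that begin with a formylated methionine, which bacteria and mitochondria release, and Fpr2 also takes lipids and host proteins such as serum amyloid A and cathelicidin. C5ar1 and C3ar1 recognise the anaphylatoxins C5a and C3a that are cut from complement proteins, Ptafr recognises platelet-activating factor, and Hcar2 recognises the ketone body β-hydroxybutyrate, butyrate and niacin. In neutrophils these receptors signal mainly through pertussis toxin-sensitive G proteins and control chemotaxis, the oxidative burst and degranulation, whereas Hcar2 is known for dampening inflammatory responses. C5ar2, a paralog of C5ar1 that binds C5a but does not couple to G proteins, was not among the 6 genes and is given for comparison.

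The Naive libraries held 18113922 to 27741885 counts in total, the HDN libraries 20049857 to 30044508 and the LDN libraries 23181686 to 26456768. Levels are given in CPM, the counts over the TMM-scaled library size. The detection floor of 3 reads amounted to 0.0954 to 0.153 CPM. Of 13 neutrophil markers, 12 had a row and none was at 0 reads in any group. Their summed level was 208707 to 243098 CPM in Naive, 80849 to 133139 CPM in HDN and 202512 to 266079 CPM in LDN. Most of this sum was S100a8 and S100a9. Of the 12, 2 were called higher and 8 lower in HDN than in Naive. Csf3r was at 3062 to 4310 CPM in Naive and 5718 to 10638 CPM in HDN, and Cxcr2 at 923 to 1209 and 2262 to 3651 CPM. The 15 monocyte and macrophage markers with a row summed to 657 to 871 CPM in Naive, 387 to 595 CPM in HDN and 368 to 542 CPM in LDN. HDN 7 had a TMM factor of 1.28, where the other HDN libraries had 1.01 to 1.05. Tissue and tumour changed together between Naive and both blood groups, and the column names of HDN and LDN carry a tag, like a date, that no Naive name has. In comparisons against Naive, bone marrow against blood, tumour and any library batch cannot be told apart. In these bulk libraries, fewer cells of a type and less RNA per cell cannot be told apart either.

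The genes lie in small clusters of related receptors. In the RefSeq annotation of GRCm38.p6, Fpr1, Fpr2 and Fpr3 are consecutive protein-coding genes on chromosome 17, C5ar2 and C5ar1 are neighbours on chromosome 7, and Hcar2 and Hcar1 are neighbours on chromosome 5. Of these neighbours, Fpr3 had 0 to 7 reads per library and Hcar1 had 0 reads. Promoter windows from RefSeq, 250 bases before to 50 bases after the transcript start, were matched for 5 of the 6 genes. The windows of the 2 neighbouring pairs are shown, since the members of each pair are set against each other by their reads further on. GGAAGT, the core of sites for ETS factors such as PU.1, was searched on both strands and is in capitals (ACTTCC is the same motif on the other strand).
Fpr1, chr17:17883890-17884189, minus strand: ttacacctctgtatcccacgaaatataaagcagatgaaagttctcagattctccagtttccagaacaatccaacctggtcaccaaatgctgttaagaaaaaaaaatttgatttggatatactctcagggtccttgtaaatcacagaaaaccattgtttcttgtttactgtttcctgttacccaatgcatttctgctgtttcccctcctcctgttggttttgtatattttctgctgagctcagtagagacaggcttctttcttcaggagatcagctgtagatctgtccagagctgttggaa
Fpr2, chr17:17887574-17887873, plus strand: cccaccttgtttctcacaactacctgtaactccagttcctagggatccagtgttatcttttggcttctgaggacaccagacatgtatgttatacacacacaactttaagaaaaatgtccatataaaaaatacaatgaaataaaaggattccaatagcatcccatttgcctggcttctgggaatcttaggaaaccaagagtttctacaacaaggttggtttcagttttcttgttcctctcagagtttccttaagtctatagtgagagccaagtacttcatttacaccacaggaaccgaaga
C5ar1, chr7:16259289-16259588, minus strand: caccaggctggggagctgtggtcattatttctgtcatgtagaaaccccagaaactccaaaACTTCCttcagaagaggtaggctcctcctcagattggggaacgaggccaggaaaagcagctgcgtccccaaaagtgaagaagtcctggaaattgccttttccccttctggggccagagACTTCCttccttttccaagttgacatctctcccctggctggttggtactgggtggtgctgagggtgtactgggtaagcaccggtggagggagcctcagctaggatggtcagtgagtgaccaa
C5ar2, chr7:16244105-16244404, minus strand: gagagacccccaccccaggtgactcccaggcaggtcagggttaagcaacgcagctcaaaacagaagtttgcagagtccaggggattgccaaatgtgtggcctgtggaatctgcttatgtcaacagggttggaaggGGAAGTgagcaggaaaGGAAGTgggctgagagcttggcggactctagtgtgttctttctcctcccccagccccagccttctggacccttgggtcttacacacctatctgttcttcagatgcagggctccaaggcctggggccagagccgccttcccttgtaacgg
The C5ar1 window held GGAAGT at 2 positions, whose first bases lie at -190 and -72 from the start. The C5ar2 window, at the farther upstream of its 2 RefSeq starts, also held it at 2 positions, at -115 and -99. The window at the other C5ar2 start, not shown, held none. The Fpr1 and Fpr2 windows held none, and 23.8% of all 32851 promoter windows held at least 1. The looser motif TTNCNNAA, the form of sites for C/EBP factors, was found at 3 positions each in the Fpr1 and Fpr2 windows. It was at 1 in C5ar1, 2 in the C5ar2 window shown and 1 in the other. None of these overlapped a GGAAGT match, and the motif was present in 40.7% of all windows. A match is a description of the letters and not of binding.

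Per length of transcript, Fpr2 was the most abundant of the receptors in each of the 3 groups. On a scale of CPM per kilobase of annotated exons (GENCODE vM21), the mean level in Naive was 761 for Fpr2, 289 for Fpr1, 260 for C5ar1, 93.3 for Hcar2 and 41.6 for Ptafr. The libraries of Fpr1 and C5ar1, neighbours in that order, overlapped. In HDN the mean level per kilobase was 580 for Fpr2, 326 for C5ar1, 218 for Fpr1, 37.0 for Ptafr and 16.6 for Hcar2, so that Hcar2 fell below Ptafr in order. In LDN the mean level per kilobase was 945 for Fpr2, 307 for C5ar1, 279 for Fpr1, 27.5 for Ptafr and 4.01 for Hcar2. The libraries of C5ar1 and Fpr1 overlapped in both blood groups too. C3ar1 was at 0.0146 per kilobase in Naive, 0.0194 in HDN and 0.0698 in LDN.

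**Figure D1:**
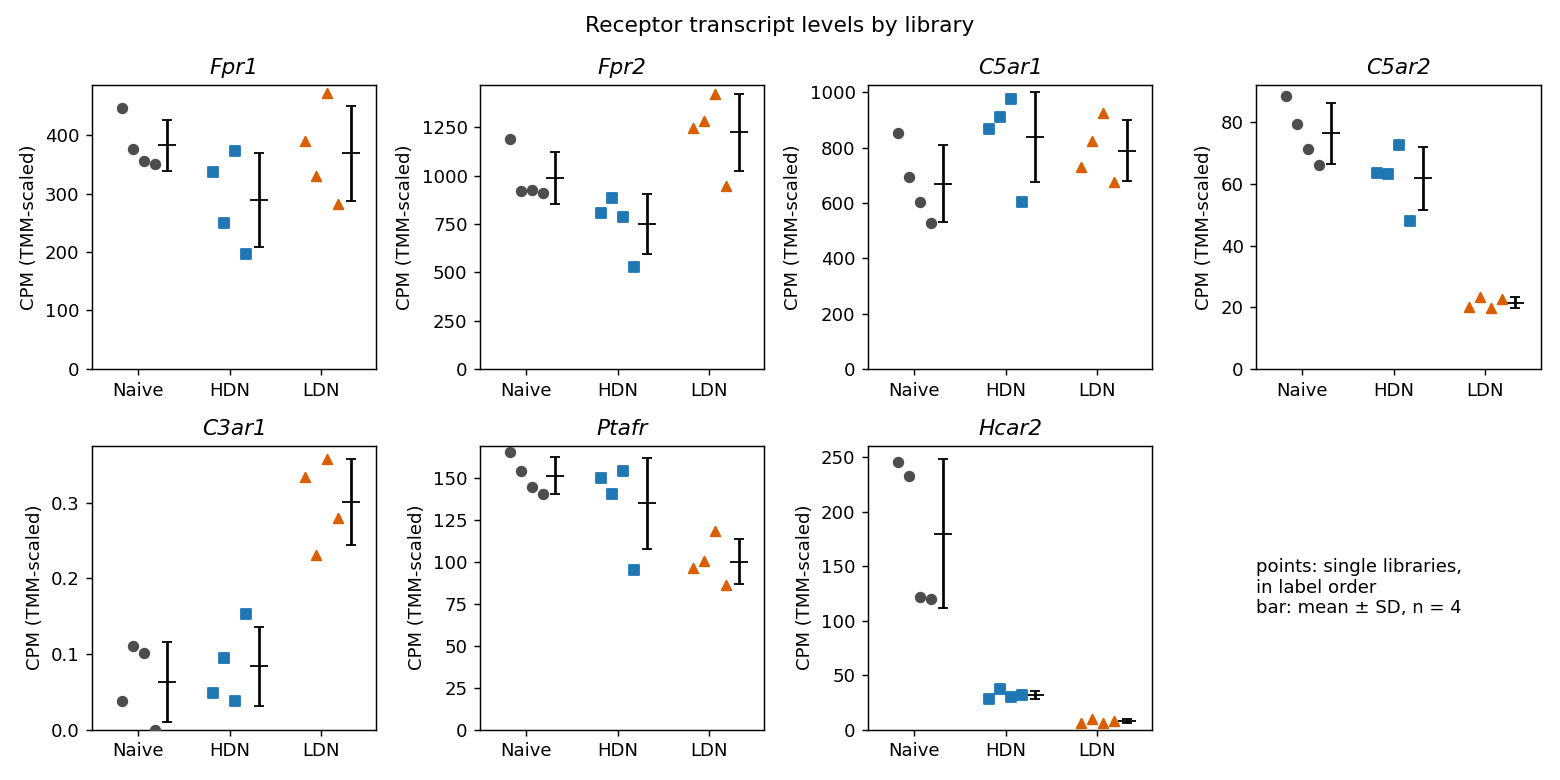
Level of each receptor in every library, in CPM after TMM scaling on an axis from 0, with C5ar2 for comparison. Points are single libraries in label order and bars are the mean ± SD (n = 4). Fpr2 was higher in every LDN library than in every HDN library, Hcar2 fell from Naive to HDN and from HDN to LDN with no overlap, and C5ar1 overlapped between all groups.

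Between the blood groups, Fpr2 was higher in LDN and Ptafr and Hcar2 were lower, while Fpr1 and C5ar1 did not pass the test. These 3 of 5 tested receptors (1 higher, 2 lower) had an adjusted p under 0.05 in LDN against HDN, where 46.3% of all tested genes did (26% higher and 20.3% lower). In HDN against Naive, 1 of 5 passed and was lower (Hcar2), where 59.8% of all genes did (30% higher and 29.9% lower). Under upper-quartile scaling 3 of 5 passed in that comparison, where 58.8% of all genes did, and with the library size taken without the 20 most abundant genes 4 of 5, where 58.1% did. In LDN against Naive, 2 of 5 passed, both lower (Ptafr and Hcar2), where 54.2% of all genes did (27.4% higher and 26.8% lower). The share of receptors called exceeded that of all genes by less than 1 gene of the 5 in LDN against HDN, and was under it in both comparisons against Naive. The median log2 fold change over the 5 tested receptors was -0.09 in LDN against HDN, -0.39 in HDN against Naive and -0.05 in LDN against Naive, beside 0.02, 0.04 and 0.01 over all tested genes. For 2 of the 5 receptors the libraries of the groups compared did not overlap, in each comparison, where 39.2% of all genes did not overlap in LDN against HDN, 53.3% in HDN against Naive and 55.3% in LDN against Naive. The comparisons against Naive share the Naive libraries.

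**Figure D2:**
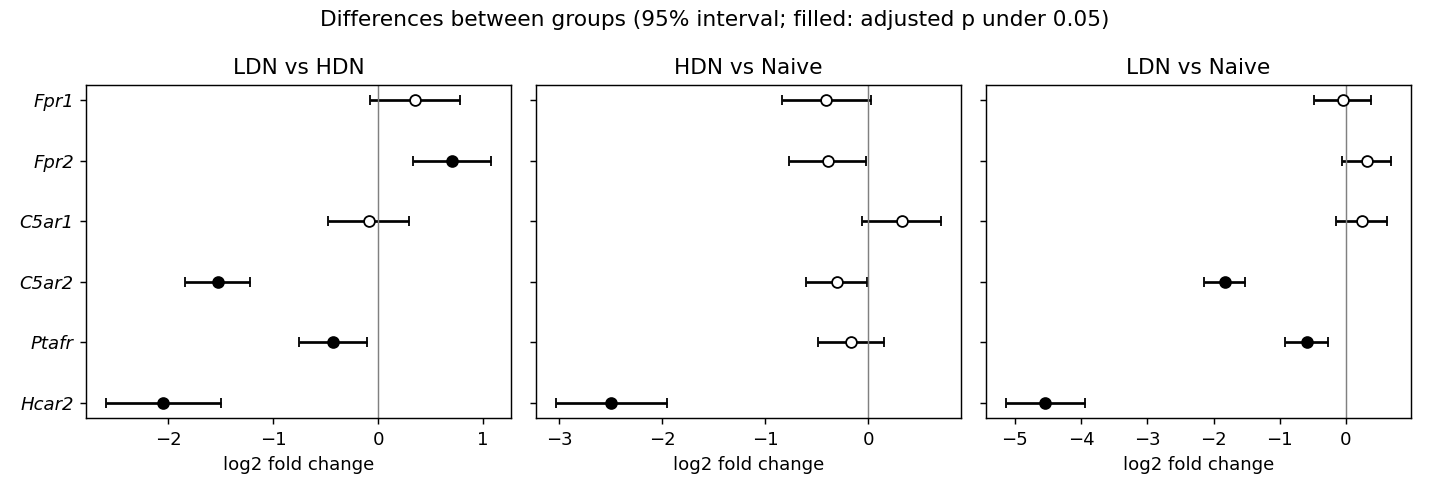
Log2 fold change of each tested receptor and of C5ar2 in the 3 comparisons, with its 95% interval; filled points have an adjusted p under 0.05 (edgeR). The panels have different scales. Hcar2 lay farthest below 0 in each of the 3 panels, at -2.04, -2.49 and -4.54, and Fpr2 was above 0 with an interval of 0.33 to 1.08 in LDN against HDN.

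Fpr2 was 1.63-fold higher in LDN than in HDN. Its level was 1246, 1283, 1421 and 946 CPM in LDN 3, 4, 5 and 7. It was 806, 886, 786 and 529 CPM in HDN 3, 4, 5 and 7, and 1191, 921, 926 and 909.7 CPM in Naive 1 to 4. Each LDN library was above each HDN library, and the Naive libraries lay above all HDN libraries and overlapped with LDN. The log2 fold change between LDN and HDN was 0.70 ± 0.17 (SE, adjusted p = 0.00496), and within each of the 4 same-numbered pairs Fpr2 was higher in LDN, by 1.45-fold to 1.81-fold. Although no HDN library reached the lowest Naive one, the difference of HDN from Naive missed the threshold, with a log2 fold change of -0.39 ± 0.17 (95% interval -0.77 to -0.02, adjusted p = 0.0652). It passed without HDN 4 (-0.48, adjusted p = 0.0413) and under 2 other scalings of the libraries (-0.50 by upper quartile, adjusted p = 0.0229, and -0.55 by library size without the 20 most abundant genes, adjusted p = 0.00175). LDN against Naive gave 0.31 ± 0.17 (95% interval -0.06 to 0.68, adjusted p = 0.147).

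Fpr1, the high-affinity formyl peptide receptor, did not pass the test in any of the 3 comparisons. Its level was 446, 376, 356 and 351 CPM in Naive 1 to 4, 337, 249, 374 and 197 CPM in HDN 3, 4, 5 and 7, and 390.2, 330.4, 472 and 283 CPM in LDN 3, 4, 5 and 7. The groups overlapped throughout. The log2 fold change was 0.35 ± 0.20 for LDN against HDN (95% interval -0.08 to 0.78, adjusted p = 0.166), -0.40 ± 0.20 for HDN against Naive (95% interval -0.84 to 0.03, adjusted p = 0.0974) and -0.05 ± 0.20 for LDN against Naive (95% interval -0.48 to 0.38, adjusted p = 0.844). Within pairs of the same number Fpr1 was higher in LDN in 4 of 4, by 1.1595-fold to 1.44-fold. With the replicate number as a block the difference passed (log2 fold change 0.32 ± 0.09, adjusted p = 0.0184). That equal numbers mark pairs is assumed and not in the labels. HDN against Naive passed under the same 2 scalings as for Fpr2 (-0.51, adjusted p = 0.0413, and -0.57, adjusted p = 0.00711) and without HDN 5 (-0.55, adjusted p = 0.0353).

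The balance of the 2 formyl peptide receptors was compared by the ratio of their reads in each library, which no scaling of the libraries can move. There were 2.45 to 2.67 reads of Fpr2 per read of Fpr1 in Naive, 2.10 to 3.56 in HDN and 3.01 to 3.88 in LDN. Every LDN ratio lay above every Naive ratio, by 0.38 on the log2 scale of the means, but exact two-sided permutation gave p = 0.0286, which is the lowest value possible with groups of 4, and 0.0571 after adjustment over 6 ratio tests. LDN exceeded HDN by 0.34 (exact permutation p = 0.114, adjusted p = 0.171). The ratio was higher in LDN in 4 of 4 same-numbered pairs, by 0.13 to 0.52 on the log2 scale (exact sign flips, p = 0.125, the smallest that 4 pairs allow). The unpaired difference without HDN 4, which had the highest HDN ratio, was 0.49 (adjusted p = 0.0429). HDN and Naive differed by 0.03 (exact permutation p = 0.857, adjusted p = 0.886). The other members of the family that the list held were barely present, as Fpr-rs3, Fpr-rs4 and Fpr-rs6 had 0 reads in all libraries.

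**Figure D3:**
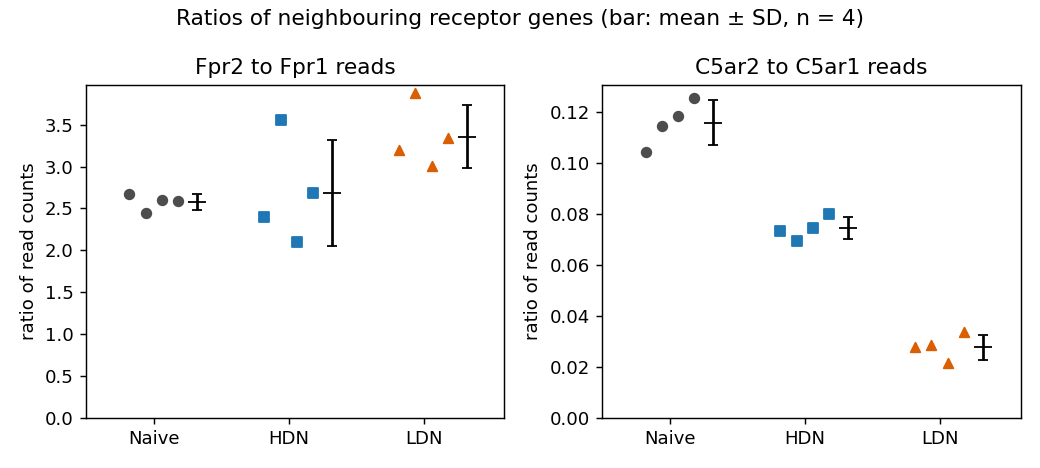
Reads of Fpr2 per read of Fpr1 and reads of C5ar2 per read of C5ar1 in every library, with the mean ± SD (n = 4). The Fpr2 to Fpr1 ratio was 3.01 to 3.88 in LDN, above the 2.45 to 2.67 of Naive, and the C5ar2 to C5ar1 ratio fell in separate ranges in the 3 groups.

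C5ar1, the C5a receptor that drives chemotaxis and the oxidative burst, did not pass the test in any comparison. Its level was 851, 693, 602 and 528 CPM in Naive 1 to 4, 866, 911, 975 and 602 CPM in HDN 3, 4, 5 and 7, and 729.8, 825, 924 and 675 CPM in LDN 3, 4, 5 and 7. All groups overlapped. The log2 fold change was -0.09 ± 0.18 for LDN against HDN (95% interval -0.47 to 0.30, adjusted p = 0.710) and 0.24 ± 0.18 for LDN against Naive (95% interval -0.15 to 0.62, adjusted p = 0.279). For HDN against Naive it was 0.33 ± 0.18 (95% interval -0.06 to 0.71, adjusted p = 0.130). This last difference passed without Naive 1 (0.47, adjusted p = 0.0294) and without HDN 7 (0.46, adjusted p = 0.0196), the highest Naive and the lowest HDN library. Under library size without the 20 most abundant genes, LDN against Naive turned to -0.049 (adjusted p = 0.760).

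Its paralog C5ar2, which takes up C5a without G protein signalling, was 2.88-fold lower in LDN than in HDN. C5ar2 was at 88.7, 79.4, 71.4 and 66.2 CPM in Naive 1 to 4, 63.5, 63.3, 72.6 and 48.1 CPM in HDN 3, 4, 5 and 7, and 20.1, 23.4, 19.8 and 22.6 CPM in LDN 3, 4, 5 and 7. LDN was apart from both other groups, which overlapped. The log2 fold change was -1.53 ± 0.14 for LDN against HDN (adjusted p = 3.43e-06), -1.83 ± 0.14 for LDN against Naive (adjusted p = 2.69e-07) and -0.31 ± 0.14 for HDN against Naive (adjusted p = 0.0724). The last passed without Naive 4 (-0.37, adjusted p = 0.04995) or HDN 5 (-0.39, adjusted p = 0.0386), under upper-quartile scaling (-0.41, adjusted p = 0.0224) and without the 20 most abundant genes (-0.46, adjusted p = 0.00230). Per read of C5ar1 there were 0.104 to 0.125 reads of C5ar2 in Naive, 0.0695 to 0.0799 in HDN and 0.0214 to 0.0334 in LDN. The 3 ranges did not overlap, and no test was made because this ratio was chosen after the values were seen.

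C3ar1, the C3a receptor, was at or near the floor of detection. It had 1, 3, 2 and 0 reads in Naive 1 to 4, 1, 3, 1 and 4 reads in HDN 3, 4, 5 and 7, and 8, 5, 7 and 6 reads in LDN 3, 4, 5 and 7. Every LDN library had more reads than every library of the other groups. The summed reads of 26 in LDN against 9 in HDN gave a ratio of 3.48 after scaling, with a counting interval at 95% of 1.58 to 8.45, and against 6 in Naive a ratio of 4.64 (1.87 to 13.8). Exact two-sided permutation of the CPM gave p = 0.0286 for each, the smallest possible, and 0.0429 adjusted over the 3 comparisons. The tests of C3ar1 itself were chosen after its reads were seen. With LDN already apart in every library, the permutation could give only its smallest p, so nothing is concluded from it. HDN against Naive gave p = 0.657 by the same exact permutation, and no fold is given as both lay near the floor. With no filter on low counts, the edgeR test over 15762 genes gave an adjusted p of 0.0271 for LDN against HDN and 0.0105 for LDN against Naive. In the authors' deposited table the adjusted p for C3ar1 was 0.0520 for LDN against HDN and 0.0214 for LDN against Naive. In LDN, where every library had at least 5 reads of C3ar1, there were 2056 to 3252 reads of C5ar1 per read of C3ar1. With 0 to 4 reads in the other groups, this ratio depends on the pseudocount there and its size is not read. The difference of LDN from HDN was -1.84 on the log2 scale with a pseudocount of 0.5 (exact permutation p = 0.0286, adjusted p = 0.0571 over the 6 ratio tests) and -1.02 with one of 5 (adjusted p = 0.114). Against Naive it was -1.94 and -0.67 (adjusted p = 0.0571 and 0.114). Because C3ar1 is a receptor also carried by monocytes and macrophages, their markers were set beside it. Of 13 tested, 8 were higher and 3 lower in LDN than in HDN. C1qa, C1qb and C1qc had 0 reads in HDN and only 14, 13 and 12 reads in LDN. Csf1r, the receptor that defines the lineage, was 251 to 517 CPM in HDN and 97.3 to 138 CPM in LDN. The part of these cells in the C3ar1 reads was not tested.

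Ptafr, the receptor for platelet-activating factor, was lower in LDN than in both other groups. Its level was 165, 154, 145 and 141 CPM in Naive 1 to 4 and 149.9, 140.2, 154 and 95.03 CPM in HDN 3, 4, 5 and 7. In LDN 3, 4, 5 and 7 it was 96.2, 100.2, 118 and 85.9 CPM. LDN was wholly below Naive, while HDN 7 fell into the LDN range and below the other HDN libraries. Ptafr was 1.51-fold lower in LDN than in Naive, with a log2 fold change of -0.59 ± 0.15 (95% interval -0.92 to -0.27, adjusted p = 0.00443). Against HDN it was -0.43 ± 0.15 (95% interval -0.75 to -0.10, adjusted p = 0.0320), and it was lower in LDN in 4 of 4 same-numbered pairs, at 0.642 to 0.904 of the HDN level. This call was lost without HDN 3 (adjusted p = 0.0898), HDN 4 (0.0567) or HDN 5 (0.0920), and kept without HDN 7 (-0.56, adjusted p = 0.00162). HDN against Naive gave -0.17 ± 0.15 (95% interval -0.49 to 0.16, adjusted p = 0.358), which passed without the 20 most abundant genes in the library size (-0.33, adjusted p = 0.0149).

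Hcar2 showed the largest differences of the 5 tested receptors in each comparison. It was at 246, 233, 122 and 120.1 CPM in Naive 1 to 4, 28.5, 37.3, 30.1 and 31.9 CPM in HDN 3, 4, 5 and 7, and 6.43, 10.1, 6.13 and 8.29 CPM in LDN 3, 4, 5 and 7. The 3 groups did not overlap. Hcar2 was 5.63-fold lower in HDN than in Naive (log2 fold change -2.49 ± 0.25, adjusted p = 1.46e-06) and 4.12-fold lower in LDN than in HDN (-2.04 ± 0.26, adjusted p = 3.37e-05). Against Naive, LDN was 23.2-fold lower (-4.54 ± 0.28, adjusted p = 2.91e-08). In each of the 4 same-numbered pairs the LDN level was 0.204 to 0.272 of the HDN level. Even the lowest LDN library had 120 reads of Hcar2, so the level lay far above the floor of 3 reads. These calls were kept under every scaling, tool and left-out library tried.

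Within Naive, Hcar2 was higher in libraries 1 and 2 than in 3 and 4, and immediate-early genes were split the same way. So were Fpr1, C5ar1, Ptafr and C5ar2 by the levels given above, while Fpr2 was not. The share of all genes split this way was not taken. Naive 1 and 2 were also deeper, at 27741885 and 25977108 counts against 18113922 and 18198123 in Naive 3 and 4. Fos, a transcription factor induced within minutes of stimulation, was at 2626 and 2253 CPM in Naive 1 and 2 and at 1209 and 1314 CPM in Naive 3 and 4. Atf3, a stress-induced transcription factor, was at 48.6 and 55.6 CPM in the former and 17.9 and 23.0 CPM in the latter. Osm, the cytokine oncostatin M, was at 1479.7 and 1170.3 CPM against 614 and 639.7 CPM. Between the groups, some of such genes were lower at both steps, as Hcar2 was, and others were not. In HDN against Naive the log2 fold change was -1.21 for Fos, -1.91 for its paralog Fosb and -3.33 for Osm. It was 0.0074 for Atf3 and 2.86 for Jun, a further immediate-early gene. In LDN against HDN it was -1.34 for Fos, -1.73 for Fosb and -3.21 for Atf3, while Jun (-0.80) and Osm (0.72) were not called. These genes were picked after their values were seen, and their part in the Hcar2 level was not tested. Without Naive 1 and 2 the log2 fold change of Hcar2 was -1.92 ± 0.19 for HDN against Naive (adjusted p = 1.13e-05) and -4.01 ± 0.20 for LDN against Naive (adjusted p = 3.22e-07). Leaving out Naive 3 and 4 in their place gave -2.91 and -4.95. The summed monocyte and macrophage markers given above were likewise highest in Naive, and overlapped between HDN and LDN. Most of the Naive sum was Csf1r (271 to 391 CPM) and Ly6c2 (328 to 425 CPM), and Csf1r overlapped between Naive and HDN (251 to 517 CPM). Of 13 such markers tested, 3 were higher and 7 lower in HDN than in Naive. In LDN against HDN, 8 were higher and 3 lower. Eosinophil markers summed to 15.3 to 65.8 CPM in Naive, 40.5 to 86.2 CPM in HDN and 13.7 to 23.2 CPM in LDN. This sum lay lower in LDN than in HDN, as did Hcar2 and, in mean, Ptafr. Nearly all of the HDN sum was Siglecf, at 39.5 to 84.0 CPM in HDN and 13.1 to 21.3 CPM in LDN. The granule genes Prg2, Prg3 and Epx had 2334, 112 and 404 reads in Naive, 18, 1 and 0 in HDN and 44, 0 and 13 in LDN. Of 4 eosinophil markers tested, 1 was higher and 2 lower in HDN than in Naive. T cell markers summed to 192 to 267 CPM in Naive, 3.55 to 19.5 CPM in HDN and 31.97 to 48.4 CPM in LDN. Platelet markers summed to 114 to 125, 9.999 to 11.7 and 28.6 to 33.9 CPM in the same order. Most of the T cell sum was Cd3d (189 to 263 CPM in Naive), and most of the platelet sum in Naive was Itgb3 (107 to 117 CPM). Of 5 T cell markers tested, 2 were higher and 2 lower in HDN than in Naive. Cd3e, for 1, had 8 reads in Naive and 58 in HDN. Of 6 platelet markers tested, 1 was higher and 5 were lower in HDN than in Naive. Itga2b had 240 reads in Naive and 717 in HDN. The part of these cells in the levels of Hcar2 and Ptafr was not tested.

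**Figure D4:**
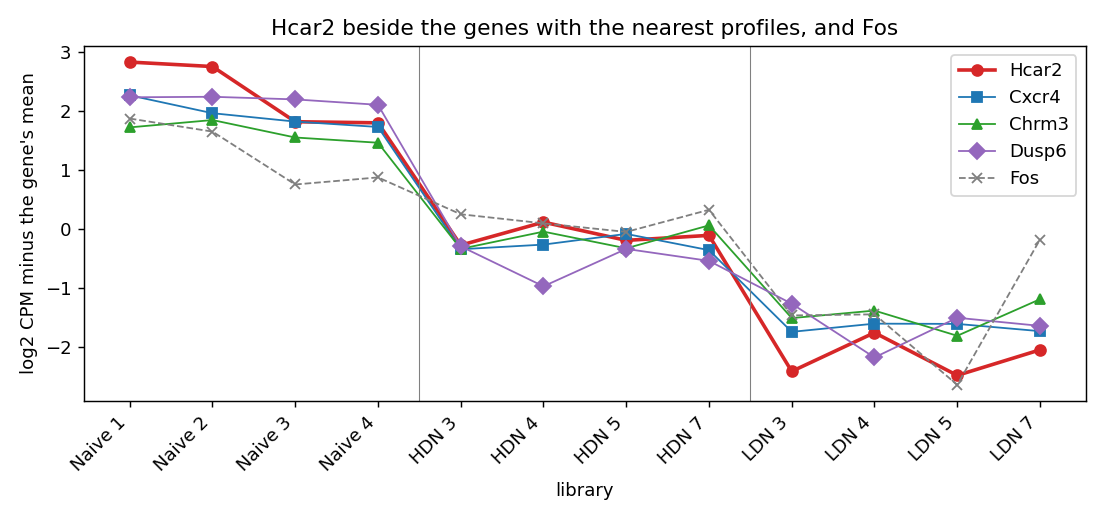
Log2 CPM of Hcar2 minus its mean over the 12 libraries, with the 3 genes whose profiles were nearest to it (Cxcr4, Chrm3 and Dusp6) and Fos; vertical lines part Naive, HDN and LDN. Hcar2 stepped down from Naive to HDN to LDN as Cxcr4 did, and Naive 1 and 2 stood above Naive 3 and 4 for Hcar2 and Fos.

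Across the libraries of a group, the 4 abundant receptors shared their extremes. Fpr1, Fpr2, C5ar1 and Ptafr were lowest in Naive 4 among Naive, in HDN 7 among HDN and in LDN 7 among LDN. All of these were highest in Naive 1 and in LDN 5. Among the HDN libraries, Fpr1, C5ar1 and Ptafr were highest in HDN 5 and Fpr2 in HDN 4. HDN 7 was the lowest HDN library for 37.4% of all tested genes, and no such share was taken for the other libraries. Naive 4, HDN 7 and LDN 7 had the highest TMM factor of their group (1.09, 1.28 and 0.927). Naive 1, HDN 5 and LDN 5 had the lowest (0.943, 1.01 and 0.825). Since CPM are divided by this factor, shared extremes are not read as receptors varying together. The part of the scaling in them was not tested. Hcar2 was also highest in Naive 1 and lowest in Naive 4, but its lowest blood libraries were HDN 3 and LDN 5.

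The genes nearest to each receptor in profile were found by the root mean square difference of centred log2 CPM over the 12 libraries, among genes of a mean log2 CPM of at least 4. For Fpr2 they were Sh3bgrl3 (0.111), the actin-binding protein gene Cotl1 (0.117) and Cap1, a regulator of actin turnover (0.132). Fpr1 was nearest to A530064D06Rik (0.0889), Ndel1 (0.107) and D1Ertd622e (0.110), C5ar1 to Gabarap (0.0882), Phf23 (0.0886) and Sesn2 (0.0945), and Ptafr to Ubtf (0.126), Smad7 (0.136) and Cdc42ep4 (0.137). For Hcar2 the nearest were the chemokine receptor Cxcr4 at 0.458, Chrm3 at 0.610 and Dusp6, a MAP kinase phosphatase, at 0.637. The distance is not scaled by how widely a gene varies, and Hcar2 varied most, from 6.13 to 246 CPM. Its larger distances therefore do not show that it was followed less closely than the other receptors. The 12 libraries share their group structure and scaling, so these distances are descriptions and carry no p.

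The counts of listed genes that follow stand beside the shares of all tested genes called, which were 46.3% in LDN against HDN, 59.8% in HDN against Naive and 54.2% in LDN against Naive, and nothing particular to a list is read from them. Saa3 and Camp, which encode host ligands of the formyl peptide receptors, had larger log2 fold changes than Fpr1 and Fpr2 in each of the 3 comparisons. Of 4 tested ligand genes, 2 were higher and 2 lower in LDN than in HDN, 2 higher and 2 lower in HDN than in Naive, and 2 higher and 1 lower in LDN than in Naive. Saa3, a serum amyloid A, was at 2.12 to 3.56 CPM in Naive, 4441 to 13970.2 CPM in HDN and 468 to 3716 CPM in LDN. It was lower in LDN than in HDN by a log2 fold change of -2.09 (adjusted p = 0.00557). Camp, the cathelicidin of secondary granules, ran the other way, at 7634 to 9219 CPM in Naive, 15.3 to 86.4 CPM in HDN and 785 to 1496 CPM in LDN, with a log2 fold change of 4.32 between LDN and HDN (adjusted p = 4.33e-06). Camp is also one of the neutrophil markers, of which 8 of 12 were higher and 1 lower in LDN than in HDN. The part of these granule transcripts in the receptor levels was not tested. Anxa1 was not analysed here.

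Of 7 tested complement receptors and regulators other than C5ar1 and C3ar1, 3 were higher and 4 lower in LDN than in HDN, 2 higher and 3 lower in HDN than in Naive, and 1 higher and 2 lower in LDN than in Naive. Cd55, which protects cells by speeding the decay of complement convertases, was at 20.8 to 26.0 CPM in Naive, 1.59 to 4.17 CPM in HDN and 11.7 to 30.2 CPM in LDN, a log2 fold change of 2.79 ± 0.33 between LDN and HDN (adjusted p = 2.03e-05). Itgax, a chain of complement receptor 4, was lower in LDN by -2.20 ± 0.23 (adjusted p = 9.30e-06). Of 9 complement components tested, 6 were higher and 1 lower in LDN than in HDN, 2 higher and 4 lower in HDN than in Naive, and 3 higher and 4 lower in LDN than in Naive. Hc, the gene of C5 itself, was at 2.595 to 4.70 CPM in HDN and 11.3 to 17.98 CPM in LDN, a difference of 1.83 ± 0.22 on the log2 scale (adjusted p = 2.76e-05), and C4b differed by -1.77 ± 0.66 (adjusted p = 0.0428). Of the 6 higher components, 3 were C1qa, C1qb and C1qc, macrophage markers with 0 reads in HDN. In LDN they had only 14, 13 and 12 reads over the 4 libraries, beside 73, 68 and 63 in Naive. These 3 calls thus rest on few reads near the floor.

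Around Ptafr, 10 genes that make or break down platelet-activating factor were tested. Of these, 4 were higher and 2 lower in LDN than in HDN, 4 higher and 5 lower in HDN than in Naive, and 3 higher and 2 lower in LDN than in Naive. The remodelling enzyme gene Lpcat1 was higher in LDN than in HDN by a log2 fold change of 1.76 ± 0.23 (adjusted p = 4.99e-05), as was the hydrolase gene Pafah2 by 2.10 ± 0.46 (adjusted p = 0.00230) and the phospholipase A2 gene Pla2g4a by 1.47 ± 0.44 (adjusted p = 0.0155). The 2 lower genes were Pla2g7 and Lpcat2. Pla2g7, the gene of the secreted hydrolase of platelet-activating factor, was at 1123 to 1649.8 CPM in HDN and 584 to 785 CPM in LDN (-1.07 ± 0.14, adjusted p = 6.13e-05), and Lpcat2, a synthesis enzyme gene, at 328 to 506 and 270.3 to 303 CPM (-0.61 ± 0.13, adjusted p = 0.00232). The 10 genes summed to 1808 to 2440.3 CPM in HDN and 1303 to 1484 CPM in LDN. Lpcat1 was lower in HDN than in Naive by -2.99 ± 0.24 (adjusted p = 1.52e-07). Beside Hcar2, 6 other receptors for metabolites and protons were tested. In LDN against HDN, 2 of these 6 were higher and 1 lower. Gpr84, a receptor for medium-chain fatty acids, was higher in LDN than in HDN (2.12 ± 0.25, adjusted p = 2.48e-05), and Gpr35 was lower (-1.31 ± 0.28, adjusted p = 0.00182). In HDN against Naive, 3 of these 6 were higher and 1 lower, and in LDN against Naive 3 were higher and none lower, among them Gpr35 at 1.23 ± 0.28 (adjusted p = 0.00230) and Gpr84 at 0.76 ± 0.24 (adjusted p = 0.0178).

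Of 7 other chemoattractant receptors tested, 1 was higher and 5 lower in LDN than in HDN, 4 higher and 2 lower in HDN than in Naive, and 5 higher and 2 lower in LDN than in Naive. Those lower in LDN than in HDN included Ccrl2 (-2.45 ± 0.46, adjusted p = 0.000724), Cxcr4, which retains neutrophils in bone marrow (-1.41 ± 0.13, adjusted p = 2.65e-06), and Cxcr1 (-1.32 ± 0.26, adjusted p = 0.00100). Cxcr1 was higher in HDN than in Naive by 4.62 ± 0.30 (adjusted p = 2.06e-08) as was Cmklr1, the chemerin receptor, with 0 to 3 reads per Naive library and 75 to 169 per HDN library (adjusted p = 4.83e-07). Cxcr4 was lower in HDN than in Naive (log2 fold change -2.22, adjusted p = 8.65e-09).

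Downstream of the receptors, 5 of 14 tested G protein subunits were higher and 2 lower in LDN than in HDN, 4 higher and 3 lower in HDN than in Naive, and 6 higher and 3 lower in LDN than in Naive. Gnai2, the abundant inhibitory alpha subunit to which these receptors couple, was at 3109 to 3519.9 CPM in LDN, above all libraries of HDN (1750.3 to 2654 CPM) and of Naive (2198 to 2894 CPM). Its log2 fold change was 0.48 for LDN against HDN (adjusted p = 0.0182) and -0.02 for HDN against Naive (adjusted p = 0.896). Gna15, a promiscuous alpha subunit that links chemoattractant receptors to phospholipase C, was lower in HDN than in Naive (-3.17 ± 0.17, adjusted p = 3.95e-09) and higher in LDN than in HDN (2.52 ± 0.16, adjusted p = 3.55e-07). Of 16 effectors, 6 were higher and none lower in LDN than in HDN, 4 higher and 5 lower in HDN than in Naive, and 6 higher and 2 lower in LDN than in Naive. The 6 had log2 fold changes of 0.29 to 0.86 between LDN and HDN, among them Elmo1 (0.70 ± 0.11, adjusted p = 0.000153). Of 11 genes of receptor desensitization and RGS proteins, 5 were higher and 1 lower in LDN than in HDN, 3 higher and 7 lower in HDN than in Naive, and 3 higher and 4 lower in LDN than in Naive. Arrb1, a beta-arrestin that uncouples activated receptors, was lower in HDN than in Naive (-3.03 ± 0.20, adjusted p = 2.10e-08) and higher in LDN than in HDN (1.37 ± 0.19, adjusted p = 6.88e-05), with LDN still below Naive (-1.66 ± 0.19, adjusted p = 6.46e-06).

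**Figure D5:**
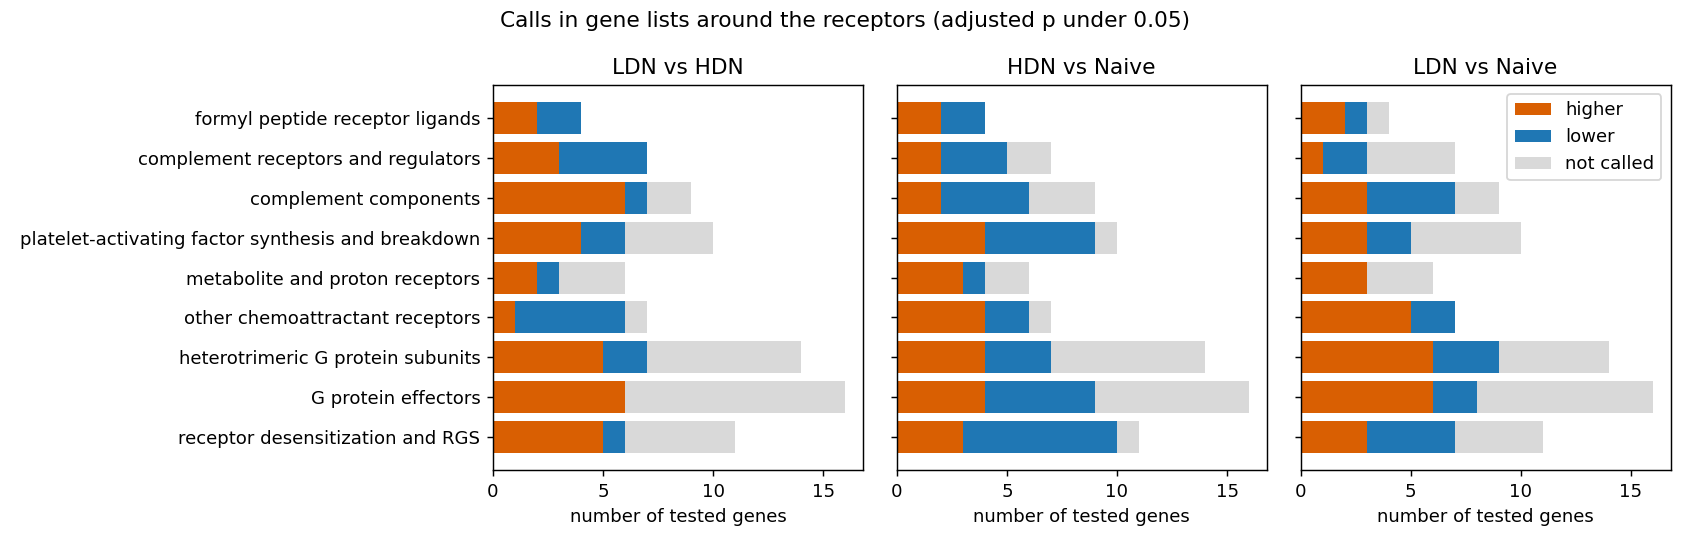
Number of tested genes called higher (orange), lower (blue) or not called (grey) at an adjusted p under 0.05 in the gene lists around the receptors, for the 3 comparisons. Of 16 G protein effectors 6 were higher and none lower in LDN than in HDN, and of 7 other chemoattractant receptors 5 were lower, beside 26% of all tested genes higher and 20.3% lower.

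In the authors' deposited table the same 3 of 5 receptors had an adjusted p under 0.05 in LDN against HDN, as did 42.7% of all genes with an adjusted p there. The log2 fold changes there were 0.65 for Fpr2 (adjusted p = 0.00161), -0.47 for Ptafr (adjusted p = 0.0132) and -2.06 for Hcar2. The authors' deposited table gave Fpr1 0.31 (adjusted p = 0.257) and C5ar1 -0.13 (adjusted p = 0.617).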

How the data were processed

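RNA was extracted with TriZol and a column kit and stranded poly(A) libraries were made, per the labels' protocols. Per the submitters' processing notes, CASAVA 1.8.2, Trimmomatic, STAR and DESeq2 1.16.1 were used. Build, annotation and use of strand were not given in the sources used here. Overlapping and antisense genes cannot be told apart. The authors deposited raw counts per gene symbol. They also deposited 3 comparison tables which, per the file headers, hold per gene a mean normalized signal, the log2 fold change, its standard error in log2, the statistic (a score) of the test, and p-values before and after adjustment.

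The counts were tested with edgeR 4.0.16 in R 4.3.3. Of 15762 genes with reads, 10604 passed its filter on low counts. Libraries were scaled by TMM, a quasi-likelihood model with group as its only term was fitted to all 12 libraries, and p-values were Benjamini-Hochberg adjusted over all tested genes at a threshold of 0.05. The steps were tested on simulated data. Alternatives used other scalings, no filter, DESeq2 1.42.0, limma 3.58.1, only the 2 groups compared, a replicate block and leaving out libraries. CPM use TMM-scaled library sizes. Read ratios had a prior count of 0.5 and were set against each other by exact permutation, two-sided, over 70 arrangements. Reads are not independent molecules, so intervals and floors cover counting error only.

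Deviations from the group means correlated at 0.30 to 0.69 between HDN and LDN libraries of the same number and at -0.55 to 0.35 between others. Every same-numbered correlation exceeded 0.1, and the numbers were taken to pair HDN and LDN. This cut does not part the pairs from other combinations. HDN 4 with LDN 7 (0.23) and HDN 5 with LDN 3 (0.17) exceeded it too. HDN 3 was slightly nearer to LDN 5 (0.35) than to LDN 3 (0.33). The pairing is thus an assumption, and results by pair or block rest on it. The chi-square per gene between libraries of a group was 3.42 for Naive 3 and 4 and 15.8 to 196 for all other pairs. None was taken as the same library counted again. Whether Naive 3 and 4 share an animal or an RNA sample is not in the labels and was not tested.

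The receptors and the 10 pathway lists (130 genes, 120 with a row) and 10 marker lists (77 genes, 73 with a row) were chosen with earlier results of these data known. From each list up to 3 genes with the largest called difference and a mean log2 CPM of at least 1 could be named, besides ligands, paralogs and partners. Not every gene of the lists is reported here. Pla2g7, Lpcat2, immediate-early genes, Csf1r, the C1q genes and the ratio of C5ar2 to C5ar1 were chosen after their values were seen, as were the tests of C3ar1, which lay below the filter.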

Additional observations from a re-analysis of the deposited data

Results flagged for a closer look

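Fpr2 in Naive 1 stood apart from the other Naive libraries, at 1191 CPM against 909.7 to 926 CPM. Its gap to the nearest of the others was 0.943 of the group's range, above Dixon's 95% limit for 4 samples. Over the 21 gene and group combinations checked (the 6 receptors and C5ar2 in 3 groups), chance flags about 1 in 20.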

How the results depend on the processing

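Over the alternatives tried for the receptors and ratios, 283 of 306 values kept their direction and side of the threshold, 3 were no longer past it, 13 were newly past it and 7 changed sign. In 168 of the 306 a single library was left out. The Hcar2 calls, Fpr2 in LDN against HDN and Ptafr in LDN against Naive were kept throughout. In HDN against Naive, where 1 receptor was called, 3 were under upper-quartile scaling (Fpr1 -0.51, Fpr2 -0.50; 58.8% of all genes called), 4 with the library size taken without the 20 most abundant genes (Fpr1 -0.57, Fpr2 -0.55, Ptafr -0.33; 58.1% of all genes) and 2 without Naive 1 and 2, an alternative chosen after seeing the data (C5ar1 0.57, adjusted p = 0.0281). These scalings shifted the median of all genes, by -0.10 in HDN against Naive and -0.17 in LDN against Naive (upper quartile) and by -0.14, -0.15 and -0.29 in LDN against HDN, HDN against Naive and LDN against Naive (without the 20 genes), and the last took the genes called higher in LDN than in Naive from 2910 to 1850. With the replicate block, Fpr1 in LDN against HDN was called at 0.32, making 4 receptors, and the block changed no other receptor call. The 7 sign changes, none of them called, were C5ar1 in LDN against Naive (-0.049 without the 20 genes), Fpr1 in LDN against Naive (0.0070 without Naive 1 and 2), the C5ar1 to C3ar1 ratio in HDN against Naive (0.34 with a pseudocount of 5, and 0.11, 0.28 and 0.33 without Naive 1, Naive 4 or HDN 7) and the Fpr2 to Fpr1 ratio in HDN against Naive (-0.11 without HDN 4).

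Leaving out 1 library at a time, 2 to 3 receptors were called in LDN against HDN and 1 to 2 in HDN against Naive. The ranges were -0.57 to -0.36 for Ptafr in LDN against HDN, and in HDN against Naive -0.48 to -0.25 for Fpr2, -0.55 to -0.25 for Fpr1 and 0.22 to 0.47 for C5ar1. Of further values not called with all libraries, Fpr1 in LDN against HDN ranged from 0.16 (without LDN 5) to 0.50, Fpr2 in LDN against Naive from 0.18 (without LDN 5) to 0.36, C5ar1 in LDN against Naive from 0.10 (without LDN 5) to 0.32, C5ar2 in HDN against Naive from -0.39 to -0.20 (without HDN 7), and Ptafr in HDN against Naive from -0.23 to -0.025 (without HDN 7). The Fpr2 to Fpr1 ratio ranged from 0.24 to 0.49 in LDN against HDN and from -0.11 to 0.14 in HDN against Naive, and the C5ar1 to C3ar1 ratio from -2.27 to -1.51 in LDN against HDN and from -0.44 to 0.33 in HDN against Naive. Flipping the signs of the 4 pairs gave p = 0.125 for both ratios, the smallest this exact test allows. With 0 to 8 reads per library, depth limits every value of C3ar1.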
